A study of Homo sapiens with 4 samples.

Results

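The genes described here are 51 regulators of the cell division cycle: cyclins, cyclin-dependent kinases (CDKs), their inhibitors, the E2F transcription factors with the pocket proteins that hold them, the enzymes that switch CDK1 on and off, the mitotic kinases and the ubiquitin ligase factors that end mitosis. They were chosen by gene symbol from their known roles, with earlier results of these data known, and 50 of the 51 had a row among the 17791 genes of the deposited table. CCND2 was not analysed here. All 50 also passed the filter on low values, at least 1 CPM in at least 1 library, which 14851 genes passed. CPM is counts per 1000000 of the scaled library size.

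Division is driven in turn by cyclin D with CDK4 and CDK6, by cyclin E with CDK2, and by cyclins A and B with CDK1. Cyclin D complexes and then cyclin E complexes phosphorylate the retinoblastoma protein RB1, which frees the activator E2Fs to switch on genes of S phase, among them cyclin E and the E2Fs themselves. Genes of mitosis come on later, through MYBL2 and FOXM1 bound with the MuvB complex, and their products are destroyed through the anaphase-promoting complex (APC/C). PC-3 cells lack p53, the main activator of the CDK inhibitor CDKN1A.

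RNA was sequenced from engineered prostate cancer tissues (EPCaTs) and from a flat coculture of the same 2 cell lines. PC-3 is a line from a bone metastasis of prostate cancer, and BJ-5ta is a foreskin fibroblast line immortalised with telomerase. The EPCaTs held PC-3 and BJ-5ta at a ratio of 5:1 in a gel of poly(ethylene glycol) coupled to fibrinogen (PF), and were taken on day 15. The groups were PF EPCaT (no added crosslinker), PF+2%PEGDA EPCaT and PF+3%PEGDA EPCaT, with excess poly(ethylene glycol) diacrylate (PEGDA) to tune mechanical properties, and 2D coculture. No sample carried any other treatment. The day of harvest and the cell ratio of the 2D coculture are not given in the labels, so time and ratio cannot be told apart from the gel in any comparison with 2D. EPCaT libraries came from pooled tissues.

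There was 1 library per group, so no difference has a replicate check and no p-value is given. Libraries held between 13760301 and 15687894 counts, with the PF+3%PEGDA EPCaT the shallowest. The 50 genes took between 0.236% and 0.279% of the counts in a library. A gene is written as higher or lower where its levels differed at least 2-fold and the exact 95% interval of the ratio, which covers counting error only, excluded equal levels. RNA of both lines was mixed in every library. Of 14 fibroblast markers tested, 10 were lower in all 3 EPCaTs than in 2D, with summed levels of 660 to 906 CPM across the EPCaTs, against 4245 CPM in 2D. CTNNA1, which PC-3 cells lack, had 5.40 to 8.29 CPM across the EPCaTs, against 33.1 CPM in 2D. Among 12 epithelial markers, 4 exceeded 2D by the same rule in every EPCaT, and none was lower in any. Fewer cells of a type and less RNA per cell cannot be told apart in such bulk samples. Of 8 endothelial and blood cell markers, 4 were in the table. CD14 and VWF were at or under 1.56 CPM in every library. CD68 had 53.3 to 66.6 CPM across the EPCaTs, against 118 CPM in 2D, and PECAM1 had 65.4 to 86.4 CPM across the EPCaTs, against 7.15 CPM in 2D.

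Promoter sequences are shown for 3 genes of mitosis and 2 E2F genes, all lower in PF+3%PEGDA than in PF, since such genes carry different promoter elements in the textbook account. Many mitotic genes are bound by MuvB at a cell cycle homology region (CHR), here searched as TTTGAA, usually near a CCAAT box (CCAAT). E2F sites were searched as TTTNNCGC. Sequences are RefSeq promoters on GRCh38.p14, read 5′ to 3′ on the gene's strand, and cover the 150 bases just before the start site, with capitals at each match on either strand. The windows lie at chr15:59104996-59105145 (plus strand) for CCNB2, chr1:43358831-43358980 (plus) for CDC20, chr16:23678739-23678888 (plus) for PLK1, chr20:33686386-33686535 (minus) for E2F1 and chr1:23531234-23531383 (minus) for E2F2.
CCNB2: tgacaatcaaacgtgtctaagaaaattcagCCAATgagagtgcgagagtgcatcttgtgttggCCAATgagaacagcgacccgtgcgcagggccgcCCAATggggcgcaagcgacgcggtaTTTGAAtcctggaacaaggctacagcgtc
CDC20: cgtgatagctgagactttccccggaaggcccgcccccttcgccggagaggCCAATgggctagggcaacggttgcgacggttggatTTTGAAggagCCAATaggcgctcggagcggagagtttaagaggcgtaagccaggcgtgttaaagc
PLK1: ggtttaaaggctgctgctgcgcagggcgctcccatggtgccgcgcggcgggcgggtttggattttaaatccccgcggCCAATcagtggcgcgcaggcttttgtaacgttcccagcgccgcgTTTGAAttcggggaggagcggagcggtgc
E2F1: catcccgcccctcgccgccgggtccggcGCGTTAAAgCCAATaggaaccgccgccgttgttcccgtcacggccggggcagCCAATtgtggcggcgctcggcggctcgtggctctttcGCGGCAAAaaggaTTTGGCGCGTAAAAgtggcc
E2F2: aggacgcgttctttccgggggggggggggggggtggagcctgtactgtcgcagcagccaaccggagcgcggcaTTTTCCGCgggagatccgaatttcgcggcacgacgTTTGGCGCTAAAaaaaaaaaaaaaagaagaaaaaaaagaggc
In CCNB2 and PLK1 the CHR letters began 29 bases before the start, and in CDC20 they began 65 bases before it. E2F1 held 4 E2F matches and E2F2 held 3 in these windows, some of which overlap on opposite strands. Over the 250 bases before the start, a CHR match was found in 12 of 57 start-site windows of 38 of these genes (21.1%), against 13.3% of all 35116 windows. A CCAAT box was found in 28 of 57 (49.1%), against 32.0% of all windows, and an E2F match in 9 of 57 (15.8%), against 5.92%. Matches to different motifs did not overlap in any of the 57 windows. Other genes did not split as the printed ones do. CCNA2, also lower in PF+3%PEGDA than in PF, had a CCAAT box but no match to TTTGAA, the only form of the CHR searched. CDK1, CCNF and E2F3 had both CHR and E2F matches. A match is a description of letters and shows no binding. E2F5, CCND1, CCNE2, WEE1, CDKN1C, E2F8, CCND2, PKMYT1, AURKA, FOXM1, UBE2C, CDK2 and TPX2 were not in the promoter table used.

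**Figure D1:**
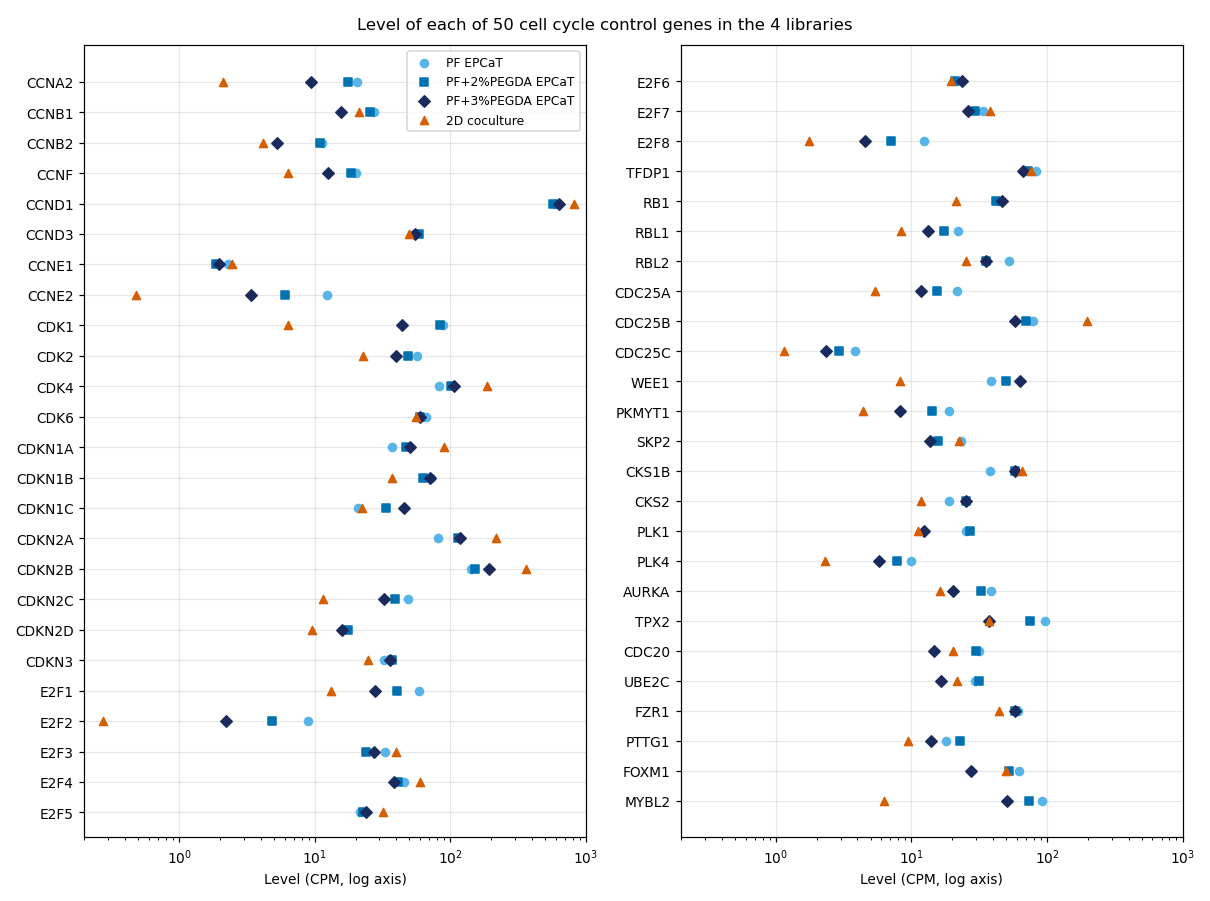
Level of each of 50 cell cycle control genes (CPM, log axis) in the 3 EPCaTs (circle PF, square PF+2%PEGDA, diamond PF+3%PEGDA) and in the 2D coculture (triangle), 1 point per library. E2F2, CCNE2, CDK1 and MYBL2 show wide gaps to the right of 2D, while CCND1, at 573 to 632 CPM across the EPCaTs, lies left of 2D at 821 CPM.

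The first question was how cells in a gel differ from cells on a flat surface. Relative to 2D, the PF EPCaT had 22 of the 50 genes higher, where 16.5% of all tested genes were, and 5 lower, where 12% were. In the PF+2%PEGDA EPCaT 20 were higher and 2 lower, against backgrounds of 12.4% and 9.45%. In the PF+3%PEGDA EPCaT 15 were higher and 1 was lower, against 12.1% and 10.4%. As shares, 44% of the 50 genes were higher in PF, 40% in PF+2%PEGDA and 30% in PF+3%PEGDA. The median log2 ratio to 2D was 0.70 in PF, 0.69 in PF+2%PEGDA and 0.37 in PF+3%PEGDA, while the median of all tested genes was 0.02, 0.01 and 0.00 in the same order. These 3 comparisons share the 2D library. Higher in all 3 EPCaTs were 12 genes, where 7.85% of all genes were: CCNA2, CCNE2, CDK1, CDKN2C, E2F1, E2F2, E2F8, CDC25A, CDC25C, WEE1, PLK4 and MYBL2. CDC25B was lower in all 3, where 6.07% of all genes were.

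**Figure D2:**
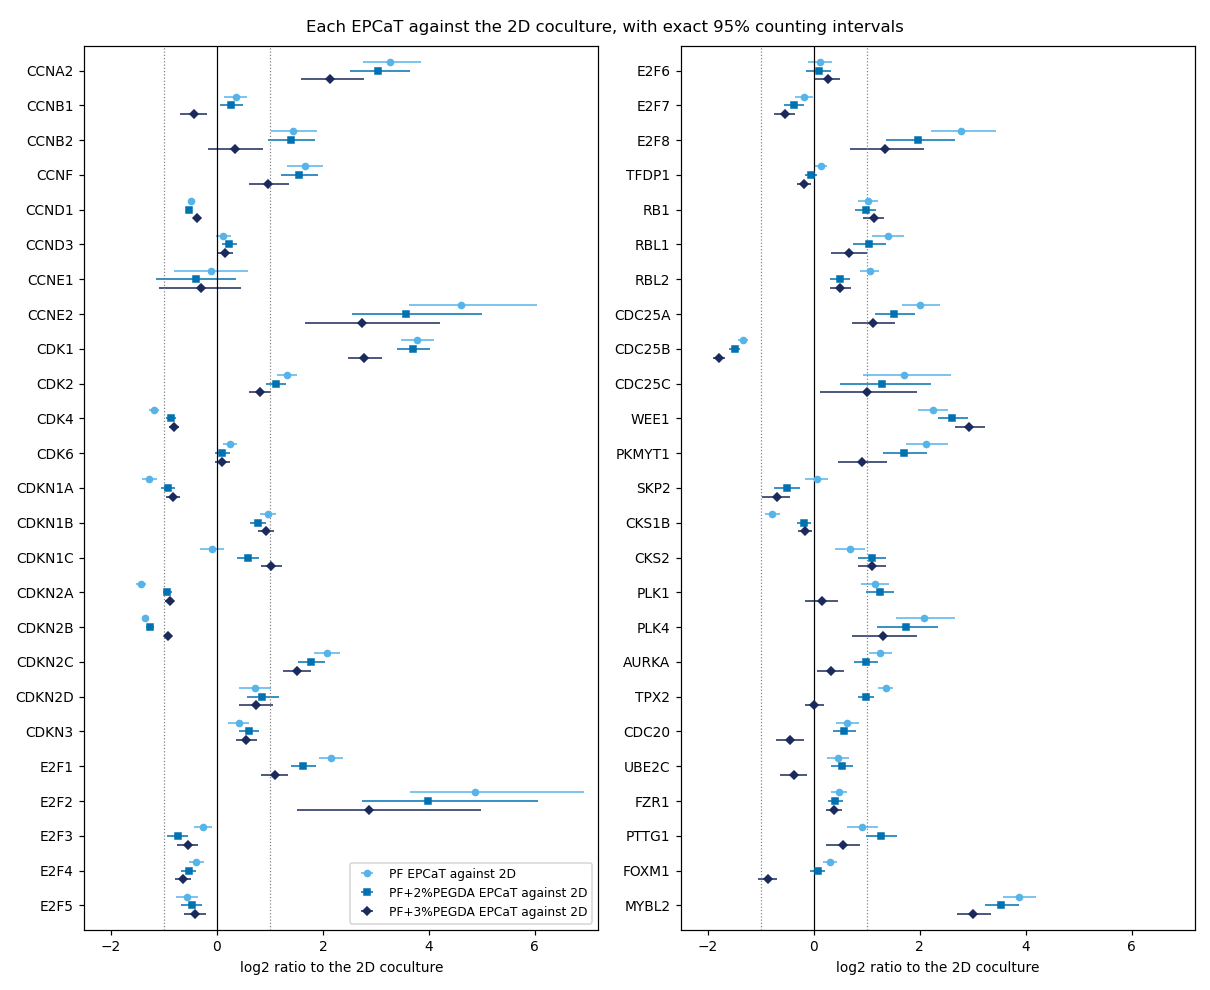
log2 ratio of each EPCaT to the 2D coculture for 50 genes, with exact 95% counting intervals and dotted lines at 2-fold. CCNE2, E2F2, CDK1 and MYBL2 lie farthest to the right in the PF EPCaT, CDC25B lies left of the line in all 3, and the PF+3%PEGDA points of the A and B cyclins, CCNF, the mitotic kinases, TPX2 and the APC/C factors lie left of their PF points.

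Among cyclins and CDKs, CCNA2, CCNE2 and CDK1 were higher than 2D in all 3 EPCaTs, CCNB2, CCNF and CDK2 in PF and PF+2%PEGDA, and CCNB1, CCNE1, CCND1, CCND3 and CDK6 in none. CDK1, the kinase that starts mitosis, had 87.8 CPM in PF, 83.4 in PF+2%PEGDA and 44.3 in PF+3%PEGDA, against 6.40 in 2D. That is 13.6-fold higher in PF (95% interval 11.1 to 17.1), 12.9-fold higher in PF+2%PEGDA (10.5 to 16.2) and 6.89-fold higher in PF+3%PEGDA (5.56 to 8.70). Cyclin A2 (CCNA2), which pairs with CDK2 and then CDK1, had 20.5 CPM in PF, 17.5 in PF+2%PEGDA and 9.39 in PF+3%PEGDA, against 2.11 in 2D. It was 9.57-fold higher in PF (6.72 to 14.5) and 4.39-fold higher in PF+3%PEGDA (2.98 to 6.82).

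The B cyclins, which activate CDK1 at mitosis, were closer to 2D than their kinase. CCNB2 had 11.3 CPM in PF, 10.95 in PF+2%PEGDA and 5.28 in PF+3%PEGDA, against 4.16 in 2D, and was higher in the first 2 of these EPCaTs. CCNB1 had 27.2 CPM in PF, 25.8 in PF+2%PEGDA and 15.7 in PF+3%PEGDA, against 21.3 in 2D, and was not called in any. CCNB1 thus lay within 2-fold of 2D in all 3 EPCaTs, and CDK1 did not in any. Cyclin F (CCNF), an F-box protein that marks proteins for destruction, had 20.0 CPM in PF, 18.6 in PF+2%PEGDA and 12.5 in PF+3%PEGDA, against 6.34 in 2D.

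Cyclin E2 (CCNE2), which activates CDK2 at the entry to S phase, had 12.4 CPM in PF, 5.99 in PF+2%PEGDA and 3.38 in PF+3%PEGDA, against 0.477 in 2D. It rests on 7 counts in 2D, which leaves a wide interval: 24.4-fold higher in PF, with 12.4 to 65.6. CCNE2 (chr8:94879770-94896678) overlaps INTS8 on the other strand, 48.2% of its 50-base stretches also occur in that gene, and the libraries do not mark strand. INTS8 had 132 CPM in PF, 91.2 in PF+2%PEGDA and 105 in PF+3%PEGDA, against 63.6 in 2D, and its share in the CCNE2 counts was not tested. The related CCNE1 had only 1.87 to 2.28 CPM across the EPCaTs, against 2.45 CPM in 2D. CDK2, the partner of both, had 56.4 CPM in PF, 49.0 in PF+2%PEGDA and 39.6 in PF+3%PEGDA, against 22.6 in 2D, and was higher in PF and PF+2%PEGDA.

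The G1 cyclins and kinases were level with 2D or below it. Cyclin D1 (CCND1), which links growth signals to CDK4 and CDK6, had 589 CPM in PF, 573 in PF+2%PEGDA and 632 in PF+3%PEGDA, against 821 in 2D. CCND3 had 54.2 to 58.6 CPM across the EPCaTs, against 49.9 CPM in 2D, and CDK6 had 59.7 to 65.7 CPM across the EPCaTs, against 55.7 CPM in 2D. CDK4 had 81.9 CPM in PF, 102 in PF+2%PEGDA and 106 in PF+3%PEGDA, against 186 in 2D, and was lower in PF by 2.27-fold (2.13 to 2.43). CDK4 also shares 46.0% of its 50-base stretches with other genes, chiefly the overlapping TSPAN31, which had 44.1 to 66.2 CPM across the EPCaTs, against 48.8 CPM in 2D.

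Of the 8 E2Fs, 2 activators (E2F1 and E2F2) and the atypical repressor E2F8 were higher than 2D in every EPCaT, where 7.85% of all genes were. The other 5 were not called in any. E2F2 (chr1:23506430-23531220), whose promoter is printed above, had 8.88 CPM in PF, 4.83 in PF+2%PEGDA and 2.20 in PF+3%PEGDA, against 0.273 in 2D. Its counts were 148 in PF, 75 in PF+2%PEGDA and 30 in PF+3%PEGDA, against 4 in 2D, so the 29.1-fold ratio in PF has an interval of 12.5 to 121. E2F1 had 58.4 CPM in PF, 40.5 in PF+2%PEGDA and 27.9 in PF+3%PEGDA, against 13.1 in 2D, and was 4.45-fold higher in PF (3.82 to 5.24). E2F3, the third activator, had 33.1 CPM in PF, 23.8 in PF+2%PEGDA and 27.2 in PF+3%PEGDA, against 39.9 in 2D, and was not called.

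E2F8 represses E2F targets after S phase and had 12.4 CPM in PF, 7.02 in PF+2%PEGDA and 4.55 in PF+3%PEGDA, against 1.77 in 2D. Its close relative E2F7 had 33.9 CPM in PF, 29.6 in PF+2%PEGDA and 26.2 in PF+3%PEGDA, against 38.2 in 2D. E2F4, E2F5 and E2F6, which act mainly as repressors, had log2 ratios to 2D between -0.64 and 0.27. TFDP1, which binds DNA together with E2Fs, had 66.7 to 83.0 CPM across the EPCaTs, against 75.6 CPM in 2D.

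Pocket proteins, which hold E2Fs and silence their targets, had log2 ratios to 2D between 0.50 and 1.41. RB1 had 43.4 CPM in PF, 42.3 in PF+2%PEGDA and 46.8 in PF+3%PEGDA, against 21.3 in 2D, and passed the rule in PF and PF+3%PEGDA. RBL1 (p107) had 22.3 CPM in PF, 17.4 in PF+2%PEGDA and 13.4 in PF+3%PEGDA, against 8.38 in 2D, and was higher in PF and PF+2%PEGDA. RBL2 (p130), the pocket protein of resting cells, had 52.4 CPM in PF and 35.6 in both PEGDA gels, against 25.1 in 2D, and was higher in PF. RBL2 shares 16.5% of its 50-base stretches with other genes. With the trend over transcript length and GC content removed, RB1 was not called in PF (log2 ratio 0.90) or PF+3%PEGDA (0.91), RBL2 was not called in PF (0.91), and RBL1 was not called in PF+2%PEGDA (0.92).

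MYBL2 (B-MYB), which joins MuvB at genes of mitosis, had 92.6 CPM in PF, 73.1 in PF+2%PEGDA and 50.8 in PF+3%PEGDA, against 6.27 in 2D. It was 14.7-fold higher in PF (12.0 to 18.4) and 8.06-fold higher in PF+3%PEGDA (6.51 to 10.2). FOXM1, which follows it at the same genes in G2, had 62.3 CPM in PF, 52.9 in PF+2%PEGDA and 27.5 in PF+3%PEGDA, against 50.2 in 2D, and was not called against 2D in any gel. FOXM1 had log2 ratios of 0.31 in PF, 0.08 in PF+2%PEGDA and -0.87 in PF+3%PEGDA. It shares 20.0% of its 50-base stretches with the overlapping ITFG2, which had 6.82 to 8.46 CPM across the EPCaTs, against 8.52 CPM in 2D.

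The switch on CDK1 was set apart from 2D on both sides. WEE1, the kinase that holds CDK1 inactive by phosphorylating it, had 38.9 CPM in PF, 50.3 in PF+2%PEGDA and 62.9 in PF+3%PEGDA, against 8.18 in 2D. It was 4.75-fold higher in PF (3.91 to 5.84), 6.13-fold in PF+2%PEGDA (5.07 to 7.51) and 7.67-fold in PF+3%PEGDA (6.35 to 9.39). PKMYT1, the membrane-bound kinase with the same task, had 19.1 CPM in PF, 14.3 in PF+2%PEGDA and 8.22 in PF+3%PEGDA, against 4.36 in 2D. Over the gels the levels of these kinases thus ran in opposite directions. PKMYT1 shares 12.3% of its 50-base stretches with the overlapping PAQR4 on the other strand. PAQR4 had 39.0 CPM in PF, 35.3 in PF+2%PEGDA and 33.1 in PF+3%PEGDA, against 24.25 in 2D, and its share in the PKMYT1 counts was not tested.

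Of the phosphatases that remove this brake, CDC25A, active in S phase and at mitosis, had 21.8 CPM in PF, 15.5 in PF+2%PEGDA and 11.7 in PF+3%PEGDA, against 5.38 in 2D. CDC25C, the mitotic form, stayed low at 3.84 CPM in PF, 2.90 in PF+2%PEGDA and 2.35 in PF+3%PEGDA, against 1.16 in 2D. CDC25B (chr20:3786772-3806121), which starts CDK1 activation at centrosomes, went the other way. It had 78.5 CPM in PF, 70.5 in PF+2%PEGDA and 57.6 in PF+3%PEGDA, against 198 in 2D, and was 2.52-fold lower in PF (2.36 to 2.69) and 3.43-fold lower in PF+3%PEGDA (3.17 to 3.72).

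CDK inhibitors split by gene. CDKN2A, which encodes p16 and, in another reading frame, ARF, had 81.5 CPM in PF, 115 in PF+2%PEGDA and 118 in PF+3%PEGDA, against 219 in 2D, and the counts do not separate these products. CDKN2B (p15) had 143 CPM in PF, 152 in PF+2%PEGDA and 192 in PF+3%PEGDA, against 363 in 2D. CDKN1A (p21) had 37.3 CPM in PF, 47.4 in PF+2%PEGDA and 50.7 in PF+3%PEGDA, against 90.0 in 2D. All 3 of these inhibitors, with CDK4 and CDC25B, were lower in PF than in 2D, the comparison in which 11 of 14 fibroblast markers were lower too. The part of the fibroblast share in these values was not tested.

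CDKN2C (p18), an inhibitor of CDK4 and CDK6 that is itself an E2F target, was on the other side. It had 48.4 CPM in PF, 39.2 in PF+2%PEGDA and 32.6 in PF+3%PEGDA, against 11.4 in 2D, and was 4.21-fold higher in PF (3.57 to 5.02). CDKN1B (p27), the inhibitor of cyclin E and CDK2, had 72.6 CPM in PF, 63.4 in PF+2%PEGDA and 70.7 in PF+3%PEGDA, against 37.1 in 2D, just short of 2-fold in PF and PF+3%PEGDA. CDKN2D (p19) had 15.8 to 17.5 CPM across the EPCaTs, against 9.60 CPM in 2D. CDKN3, a phosphatase that dephosphorylates CDKs, had 32.6 to 37.2 CPM across the EPCaTs, against 24.5 CPM in 2D. CDKN1C (p57) is described with the gels.

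All 4 genes of the mitotic kinase group were higher than 2D in PF (background 16.5%), 2 in PF+2%PEGDA (50%, background 12.4%) and 1 in PF+3%PEGDA (25%, background 12.1%). PLK1, which drives spindle assembly and exit from G2, had 25.1 CPM in PF, 26.9 in PF+2%PEGDA and 12.5 in PF+3%PEGDA, against 11.2 in 2D. AURKA, the centrosomal kinase that activates PLK1, had 38.9 CPM in PF, 32.3 in PF+2%PEGDA and 20.3 in PF+3%PEGDA, against 16.3 in 2D. TPX2, the spindle protein that activates AURKA, had 96.1 CPM in PF, 74.3 in PF+2%PEGDA and 37.6 in PF+3%PEGDA, against 37.3 in 2D. In PF+3%PEGDA these 3 genes had log2 ratios to 2D of 0.15, 0.32 and 0.01. PLK4, which starts centriole duplication, had 9.90 CPM in PF, 7.80 in PF+2%PEGDA and 5.80 in PF+3%PEGDA, against 2.32 in 2D. Of these 4 genes, it was the 1 higher in all 3 EPCaTs.

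Of the APC/C factors, CDC20, UBE2C and FZR1 lay within 2-fold of 2D in every EPCaT, and PTTG1 did not in PF+2%PEGDA. CDC20, the activator of the APC/C in mitosis, had 31.4 CPM in PF, 30.1 in PF+2%PEGDA and 14.8 in PF+3%PEGDA, against 20.2 in 2D. UBE2C, its ubiquitin-conjugating enzyme, had 29.7 CPM in PF, 31.5 in PF+2%PEGDA and 16.7 in PF+3%PEGDA, against 21.7 in 2D. FZR1, its activator in G1, had 57.7 to 61.4 CPM across the EPCaTs, against 44.0 CPM in 2D. PTTG1 (securin), the APC/C substrate that guards sister chromatids, had 17.9 CPM in PF, 22.9 in PF+2%PEGDA and 13.9 in PF+3%PEGDA, against 9.47 in 2D, and passed the rule in PF+2%PEGDA.

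SKP2, the F-box protein that targets p27, had 23.2 CPM in PF, 15.7 in PF+2%PEGDA and 13.7 in PF+3%PEGDA, against 22.3 in 2D. CKS2, a small CDK subunit, had 19.0 CPM in PF and 25.3 in both PEGDA gels, against 11.8 in 2D, and was higher in PF+2%PEGDA and PF+3%PEGDA. CKS1B, the subunit that works with SKP2, had 38.2 CPM in PF, 58.0 in PF+2%PEGDA and 58.6 in PF+3%PEGDA, against 65.5 in 2D, but 32.7% of its 50-base stretches occur in other genes, mainly its pseudogenes, which makes its count uncertain.

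The second question was how the gels differed with added PEGDA, and no comparison here uses 2D. Between PF+3%PEGDA and PF, 1 gene of the 50 was higher and 11 were lower, against backgrounds of 3.64% and 7.49%, so 22% of the genes were lower. Between PF+2%PEGDA and PF, none was higher, where 2.98% of all genes were, and only CCNE2 was lower, where 5.56% were. Between PF+3%PEGDA and PF+2%PEGDA, none was higher, where 1.87% were, and 4 were lower (CCNB2, E2F2, PLK1 and CDC20), where 2.39% were. The median log2 ratio of the 50 genes was -0.48 for PF+3%PEGDA against PF, -0.14 for PF+2%PEGDA against PF and -0.23 for PF+3%PEGDA against PF+2%PEGDA, with that of all tested genes at 0.00 in each. Beside this, 1 of 14 fibroblast markers (COL1A2) was lower in PF+3%PEGDA than in PF, a share of 7.14% near the background of 7.49%. The list had a median log2 ratio of -0.33 and a summed level of 660 CPM in PF+3%PEGDA and 848 CPM in PF. None of 12 epithelial markers was called between these gels, with a median log2 ratio of -0.07. The part of the cell types in the values of the 50 genes was not tested.

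Genes lower in PF+3%PEGDA than in PF were CCNA2, CCNB2, CCNE2, E2F1, E2F2, E2F8, PKMYT1, PLK1, TPX2, CDC20 and FOXM1. The sizes ran from 2.01-fold (1.68 to 2.42) for PLK1 to 3.98-fold (2.71 to 6.19) for E2F2. TPX2 was lower by 2.55-fold (2.31 to 2.83) and FOXM1 by 2.26-fold (2.01 to 2.55). CDK1 lay just inside the 2-fold line at 1.98-fold lower (1.80 to 2.18), as did AURKA at 1.91-fold (1.66 to 2.21). Without a size rule, the interval lay below equal levels for 32 of the 50 genes, where 31.8% of all genes did, and above it for 9, where 32% did. For PF+2%PEGDA against PF this held below for 21 genes, where 29.2% of all genes did, and above for 10, where 29.9% did. For PF+3%PEGDA against PF+2%PEGDA it held below for 25, where 19.5% did, and above for 5, where 20.1% did.

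Levels were ordered by PEGDA for 8 genes, by the rule that PF+3%PEGDA against PF is called and that both steps go in 1 direction with each interval clear of equal levels. Genes whose steps both pass but whose full range stays under 2-fold, such as WEE1 and MYBL2, are not among them. CCNE2, E2F1, E2F2, E2F8, PKMYT1, TPX2 and FOXM1 were lower with each step, where 2.23% of all tested genes were so ordered, and CDKN1C was higher with each step, where 0.929% were. CDKN1C (p57), a CDK inhibitor of cells that leave the cycle, had 20.8 CPM in PF, 33.3 in PF+2%PEGDA and 45.3 in PF+3%PEGDA, against 22.2 in 2D. It was 2.18-fold higher in PF+3%PEGDA than in PF (1.91 to 2.50) and 2.04-fold higher in PF+3%PEGDA than in 2D (1.78 to 2.34), while PF was level with 2D. WEE1 had log2 ratios of 0.69 for PF+3%PEGDA against PF and 0.37 for PF+2%PEGDA against PF, short of 2-fold.

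**Figure D3:**
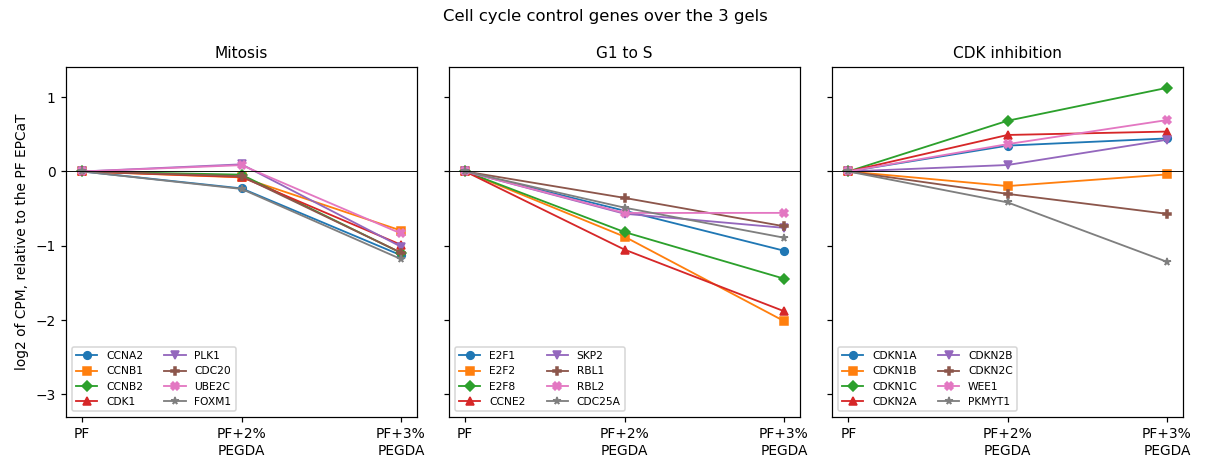
log2 of CPM relative to the PF EPCaT, by gel from PF through PF+2%PEGDA to PF+3%PEGDA, 1 library each, for 8 genes each of mitosis, of the G1 to S transition and of CDK inhibition, picked after their values were seen. The 8 genes of mitosis lie between -0.24 and 0.10 in PF+2%PEGDA and between -1.18 and -0.79 in PF+3%PEGDA, E2F1, E2F2, E2F8 and CCNE2 lie between -1.05 and -0.53 in PF+2%PEGDA, and CDKN1C is the inhibitor with the largest increase. TPX2, PLK4, AURKA and PTTG1, which are not drawn, fall outside the range of the 8 genes of mitosis in PF+2%PEGDA, with -0.37, -0.34, -0.265 and 0.35. In PF+3%PEGDA, CCNF, PLK4 and FZR1 lie above the range of those 8 genes, with -0.68, -0.77 and -0.09. PTTG1 also lies above it there, and TPX2 lies below it, with -1.35. CCNF and FZR1 are not drawn either.

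The 2 PEGDA steps were then compared gene by gene. Both steps use the 1 PF+2%PEGDA library, with opposite sign. A deviation of that library would thus move the steps of many genes together, in opposite directions. The 12 genes of 3 roles (A and B cyclins with CCNF; PLK1, PLK4, AURKA and TPX2; and the 4 APC/C factors, of which FZR1 acts in G1) had a median log2 ratio of -0.07 for the first step, PF+2%PEGDA against PF, and -0.81 for the second, PF+3%PEGDA against PF+2%PEGDA. The second step alone had an interval below equal levels for 11 of the 12, where 19.5% of all tested genes did. The first step had it below for 2, where 29.2% did, and above for 1, where 29.9% did. With the trend over transcript length and GC content removed, the medians were -0.23 for the first step and -0.80 for the second. The first step then had an interval below equal levels for 5 of the 12 and above for none. Shares of all tested genes were not counted with that trend removed. With the trend left in, the second step minus the first, in log2, lay below 0 beyond its counting interval for 10 of the 12. It lay above 0 for none. PLK4 and FZR1, with -0.08 and 0.05, had intervals that held 0. Among all 50 genes this held below 0 for 16 and above 0 for 5, where 24.4% and 20.7% of all tested genes did. PLK1 had 0.10 for the first step and -1.10 for the second, a difference of -1.20 (-1.58 to -0.82). CDC20 had a difference of -0.96 and PTTG1 of -1.07, and the intervals were -1.59 to -0.42 for CCNB2 and -1.35 to -0.66 for UBE2C. FOXM1 and CDK1, outside those 12, had -0.71 and -0.84. The 15 other mitotic kinases and partners counted below had median log2 ratios of -0.37 for the first step and -0.65 for the second. MKI67 had -1.28 for the first step and -0.92 for the second.

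E2F1, E2F2 and cyclin E2 had intervals of the difference that held 0, and whether they differ from the 12 genes was not tested. E2F1 had -0.53 for the first step and -0.54 for the second, a difference of -0.01 (-0.29 to 0.28). E2F2 had -0.87 and -1.12, with a wide interval of the difference (-1.11 to 0.61), and CCNE2 had -1.05 and -0.82 (-0.52 to 0.97). E2F3 and RBL2 had -0.47 and -0.56 for the first step and 0.19 and 0.00 for the second. CKS1B and CDKN2A, by contrast, had 0.60 and 0.49 for the first step and 0.01 and 0.05 for the second. With the same trend removed, the difference lay below 0 for 11 of the 50 genes and above 0 for 5. The share of all tested genes was not counted in that setting. With the trend left in, it was 24.4% below 0 and 20.7% above. Of the 12, 9 lay below 0 and none above with the trend removed. CCNA2, CDK1, AURKA, CDC20 and UBE2C were then ordered by PEGDA as well.

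**Figure D4:**
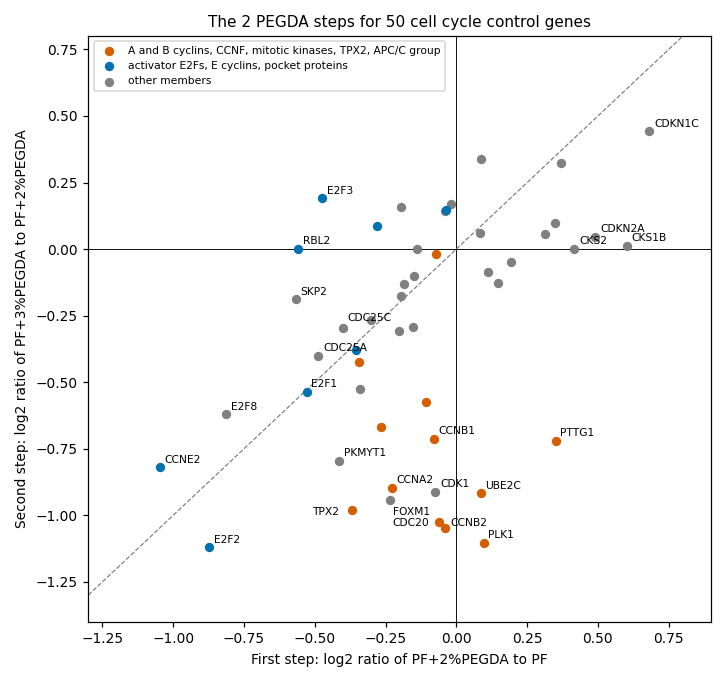
Log2 ratio of the second PEGDA step (PF+3%PEGDA against PF+2%PEGDA) plotted against that of the first (PF+2%PEGDA against PF) for 50 genes, with a dashed line of equal steps. PLK1, UBE2C, CCNB2 and CDC20 sit near 0 on the horizontal axis and near -1 on the vertical axis, while E2F1 sits on the dashed line. Both axes use the PF+2%PEGDA library.

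Other genes of the same machinery were counted from lists drawn up for this purpose. Of 15 other mitotic kinases and partners, 11 were higher and 2 lower in PF than in 2D, 8 higher and 2 lower in PF+2%PEGDA, and 2 higher and 2 lower in PF+3%PEGDA. As shares, 73.3% were higher in PF (background 16.5%), 53.3% in PF+2%PEGDA (12.4%) and 13.3% in PF+3%PEGDA (12.1%), and 13.3% were lower in each (12%, 9.45% and 10.4%). Of these 15, 8 were lower in PF+3%PEGDA than in PF (53.3%, background 7.49%) and 6 were ordered lower by PEGDA (40%, background 2.23%). BUB1, the spindle checkpoint kinase, had 38.4 CPM in PF, 30.1 in PF+2%PEGDA and 17.4 in PF+3%PEGDA, against 9.06 in 2D. INCENP, the scaffold of the aurora B complex, had 52.0 CPM in PF, 35.0 in PF+2%PEGDA and 22.4 in PF+3%PEGDA, against 18.2 in 2D. Survivin (BIRC5), of the same complex, had 86.4 CPM in PF, 81.0 in PF+2%PEGDA and 52.7 in PF+3%PEGDA, against 37.5 in 2D. ECT2, which triggers cytokinesis, had 83.4 CPM in PF, 62.4 in PF+2%PEGDA and 49.9 in PF+3%PEGDA, against 48.4 in 2D. PLK2 and PLK3, stress-linked relatives of PLK1, were the 2 that were lower than 2D in every EPCaT.

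Core subunits of the ubiquitin ligases were mostly not called. Of 16 APC/C genes (subunits, an E2 enzyme and an inhibitor), 1 was higher in PF than in 2D, the inhibitor (6.25%, background 16.5%). None was called in PF+2%PEGDA, and 1 was lower in PF+3%PEGDA than in 2D (6.25%, background 10.4%). Between PF+3%PEGDA and PF, none was called. UBE2S, the enzyme that extends ubiquitin chains for the APC/C, was the lower one, with 62.4 CPM in PF+3%PEGDA and 127 CPM in 2D. Of 6 genes of the SCF ubiquitin ligase, 1 was higher in PF than in 2D (16.7%, background 16.5%), and none was called in the other EPCaTs. RBX1, the RING subunit of this ligase, was higher in PF+3%PEGDA (43.0 CPM) than in PF (21.2 CPM), 1 of the 6 genes (16.7%, background 3.64%). Of 8 MuvB genes and partners, 1 was higher than 2D in PF (12.5%, background 16.5%) and in PF+2%PEGDA (12.5%, background 12.4%). This was MYBL1, the relative of MYBL2. It had 23.4 CPM in PF, 12.0 in PF+2%PEGDA and 7.56 in PF+3%PEGDA, against 4.16 in 2D. MYBL1 was also the 1 of the 8 ordered lower by PEGDA (12.5%, background 2.23%).

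Of 25 other cyclins and CDKs, 4 were higher and 2 lower than 2D in PF, 2 higher and 1 lower in PF+2%PEGDA, and 4 higher and 2 lower in PF+3%PEGDA. These shares, 16% higher and 8% lower in PF, 8% and 4% in PF+2%PEGDA and 16% and 8% in PF+3%PEGDA, lie near or below the shares of all genes given above, apart from the 16% higher in PF+3%PEGDA (12.1%). Cyclin G2 (CCNG2), linked to cell cycle arrest, had 140 CPM in PF, 156 in PF+2%PEGDA and 178 in PF+3%PEGDA, against 30.8 in 2D. Cyclin L2 (CCNL2), a splicing cyclin, was higher in PF than in 2D and lower in both PEGDA gels than in PF, with 412 CPM in PF, 91.2 in PF+2%PEGDA and 86.1 in PF+3%PEGDA, against 70.9 in 2D. Of 12 genes of checkpoint kinases and the p53 arm, 4 were higher and 1 lower in PF than in 2D, 1 and 1 in PF+2%PEGDA, and 1 and 3 in PF+3%PEGDA, and 3 were lower in PF+3%PEGDA than in PF. The 4 higher in PF are 33.3% of the 12 (background 16.5%), and the 3 lower in PF+3%PEGDA are 25% of them against 2D (10.4%) and 25% against PF (7.49%). ATM, the kinase of DNA breaks, was among these 3, with 103 CPM in PF, 58.6 in PF+2%PEGDA and 48.0 in PF+3%PEGDA, against 45.8 in 2D. MDM2, which degrades p53, had 76.6 to 102 CPM across the EPCaTs, against 68.9 CPM in 2D. The proliferation marker MKI67 had 119 CPM in PF, 49.0 in PF+2%PEGDA and 25.9 in PF+3%PEGDA, against 7.56 in 2D, and was lower than PF in both PEGDA gels.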

How the data were processed

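The authors deposited 1 table of expected counts (estimated read counts per gene, not scaled between libraries). Per the labels' protocols, RNA was extracted with RNeasy columns and libraries were made with a TruSeq RNA v2 kit. Per the submitters' processing notes, the tools were FastQC, STAR and Partek, and the build was hg38. Versions, annotation and counting method are not given in the sources used here. Between 18.2% and 19.9% of values in a library were not whole (tolerance 0.01), and all were rounded.

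Scaling factors were TMM factors from edgeR 4.0.16 (R 4.3.3), computed over the 14851 genes that reached 1 CPM in any of the 4 libraries. Log2 ratios used a prior count of 0.5, with exact Clopper-Pearson 95% intervals, and a gene was called at 2-fold or more with an interval that excluded equal levels. PCR copies were not separated from molecules, so intervals cover counting error only. The interval of the second step minus the first used a normal approximation. With 1 library per group neither edgeR nor DESeq2 can test, so no p-values are given. Gene positions, lengths and shared 50-base stretches came from GENCODE release 29 (GRCh38), matched by symbol for 50 of the 50 genes, and promoters from RefSeq. Python 3.11.15, scipy 1.17.1, pandas 2.3.3, statsmodels 0.14.6 and matplotlib 3.10.9 were used.

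Tried in their place were size factors from DESeq2 1.42.0, scaling by total counts, no filter, a 4-fold rule, a prior count of 2, and removal of the trend with transcript length and GC content (lowess, fraction 0.3). The comparison of the 2 PEGDA steps, with its alternatives, was added after the data were seen. All of the genes could be named, with the value of each library for those called at 5 CPM or more. From the other lists, up to 4 of the most abundant genes were named. The 51 genes and all lists were chosen with earlier results of these data known.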

Additional observations from a re-analysis of the deposited data

How the results depend on the processing

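No direction of a called gene was reversed in any alternative. Of 82 calls among 300 values (50 genes in 6 pairs of libraries), DESeq2 size factors lost 1 and gained 0, a prior count of 2 lost 1 and gained 0, total counts lost 0 and gained 10, no filter changed 0, and removal of the length and GC trend lost 5 and gained 11. The call lost under DESeq2 size factors and under the prior of 2 was CDC25C in PF+3%PEGDA against 2D, with a log2 ratio of 0.99 and 0.95. Total counts moved the median of all genes by 0.18 log2 in PF against 2D, 0.11 in PF+2%PEGDA against 2D and -0.10 in PF+3%PEGDA against PF, and the gains lie within those shifts of the 2-fold line. With the trend removed, the median of the 50 genes in PF against 2D was 0.94, 2 genes were lower in PF+3%PEGDA against 2D, 2 were lower in all 3 EPCaTs, and 12 were lower in order with PEGDA. Under the 4-fold rule 12 genes were higher and 0 lower in PF against 2D, 6 and 0 in PF+2%PEGDA against 2D, 6 and 0 in PF+3%PEGDA against 2D, and 6 and 0 in all 3. By that rule 0 were lower in PF+2%PEGDA against PF, 0 higher and 0 lower in PF+3%PEGDA against PF, 0 lower in PF+3%PEGDA against PF+2%PEGDA, and 0 higher and 0 lower in order with PEGDA. Shares of all tested genes were counted only in the main setting. The counts under the 4-fold rule and with the trend removed thus have no background to set them against. No paired analysis was possible because each group has 1 library, and for the same reason no library could be left out. Depth limits E2F2 and CCNE2 most, with 4 and 7 counts in 2D.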
